A study of Mus musculus with 6 samples.

Results

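The DNA repair genes described here are 42 genes chosen by symbol, of 52459 genes in the table of read counts from 6 mouse livers. The rule names genes by symbol only, but the list was drawn up with earlier results of these data known. All 42 symbols were found and tested, among 17032 tested genes. By their known roles the 42 were divided into homologous recombination and the Fanconi pathway (12 genes), break sensing and checkpoint kinases (7), end joining (4), base excision repair (8), mismatch repair (2), nucleotide excision repair (6), direct reversal (1), and the replication clamp and ligase (2).

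The livers came from male Alb-Cre/Cas9 mice of the C57BL6J strain, in which albumin regulatory sequences drive the Cre recombinase, which turns on Cas9 in the liver. An AAV8 vector was injected into a vein at 4 to 5 weeks of age, and carried either a control guide RNA (sgCtrl, 3 mice, livers 5.1, 7.1 and 7.2) or one that targets Prdx2 (sgPrdx2, 3 mice, livers 1.1, 1.3 and 3.2). All 6 mice, controls included, received diethylnitrosamine (DEN), a carcinogen of the liver, at 100 mg/kg and then a choline-deficient high-fat diet (CDA-HFD) for 6 months, and were 8 months old, so that every value below is from an injured liver and no untreated liver was compared. Prdx2 encodes peroxiredoxin 2, which removes hydrogen peroxide. The edit was aimed at hepatocytes and not at the other liver cells, and hepatocytes not reached by the vector stay unchanged. In RNA from whole liver fewer cells of a type and less RNA per cell cannot be told apart.

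Cells repair DNA by pathways that each take one kind of damage. Double-strand breaks are sensed by the Mre11a-Rad50-Nbn complex and the kinases Atm and Atr, and are then joined end to end or copied from a sister chromatid by homologous recombination, which is active in dividing cells, while the Fanconi pathway opens crosslinks between the strands. Base excision repair removes oxidized, deaminated and alkylated bases, nucleotide excision repair cuts out bulky adducts, mismatch repair corrects replication errors, and Mgmt takes alkyl groups directly off guanine, the kind of lesion that DEN leaves once hepatocytes have activated it.

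Total counts ranged from 37462102 to 56865293 per liver, and levels are given as normalized CPM, counts relative to the library's total after scaling by edgeR's TMM method. Prdx2 was at 109, 117 and 132 CPM in sgCtrl livers 5.1, 7.1 and 7.2 and at 99.0, 112 and 149 CPM in sgPrdx2 livers 1.1, 1.3 and 3.2, with a log2 fold change of 0.01 (SE 0.18, 95% interval -0.41 to 0.42, adjusted p = 0.983 by edgeR's quasi-likelihood test). The groups overlapped. A guide RNA changes the sequence of a gene and need not lower its RNA, so this level neither checks nor contradicts the labels. As for the labelled tissue, all 8 hepatocyte markers were detected in every liver. They summed to 77110 to 82580 CPM in sgCtrl and 131800 to 178200 CPM in sgPrdx2 livers, and 8 of 8 had groups that did not overlap, with higher levels in sgPrdx2 (16.7% of all tested genes). An adjusted p under 0.05 by edgeR's quasi-likelihood test was found for 5 of the 8, where 1.79% of all tested genes were higher at such a p. The part of this difference in marker levels in the values of the repair genes was not tested.

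No repair gene passed the test. Of the 42, 0 had an adjusted p under 0.05 by edgeR's quasi-likelihood test, adjusted by Benjamini-Hochberg over all tested genes, of which 3.33% had one (1.79% with higher and 1.54% with lower levels in sgPrdx2 livers). DESeq2 called 2 of the 42, Mgmt and Pcna, and 13.4% of the genes it tested. Mgmt was also called without a filter on low counts (3.94% of genes) and Pcna with an offset for transcript length and GC content (6.04% of genes). At an unadjusted p under 0.05 there were 7 (16.7%), 3 with lower levels in sgPrdx2 livers (Fancd2, Chek1, Pcna) and 4 with higher levels (Xrcc5, Neil1, Xpa, Mgmt), where 24.9% of all tested genes had such a p (11.9% lower and 13.0% higher). Groups did not overlap for 11 of the 42 (26.2%), 6 lower and 5 higher in sgPrdx2, where this was so for 34.2% of all tested genes (17.5% lower and 16.7% higher). Both shares were below those of all genes. The median log2 fold change of the 42 was -0.04 (range -0.83 to 0.70), beside -0.02 over all tested genes. Of the 42, 24 (57.1%) were on the lower side, beside 51.7% of all genes.

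Behind this median the pathways lay on different sides. The median log2 fold change was -0.21 for homologous recombination and the Fanconi pathway (9 of 12 on the lower side), -0.22 for break sensing and checkpoint (7 of 7) and -0.37 for the replication clamp and ligase (2 of 2). It was 0.16 for end joining (3 of 4 on the higher side), 0.14 for base excision (7 of 8), 0.08 for nucleotide excision (4 of 6) and 0.70 for Mgmt alone, and -0.09 for both mismatch genes. These medians are descriptions without a test. Leaving out a liver moved several of them by over 1.5 times. That of recombination and Fanconi genes was -0.11 without sgCtrl 7.1, -0.10 without sgPrdx2 1.1, -0.33 without sgPrdx2 1.3 and -0.13 without sgPrdx2 3.2, and that of base excision 0.09 without sgCtrl 5.1 and 0.03 without sgPrdx2 3.2. Without sgCtrl 5.1 end joining was at 0.10 and nucleotide excision at 0.05, without sgPrdx2 1.1 nucleotide excision was at 0.18, and without sgCtrl 7.2 break sensing and checkpoint were at -0.15 and the replication clamp and ligase at -0.24. When counts were scaled by library size only or to 6 housekeeping genes, the median of all genes moved to -0.39 and -0.38, 40 of the 42 were on the lower side under each (81.2% and 81.5% of all genes), and the medians of end joining, base excision and nucleotide excision turned negative, at -0.21, -0.24 and -0.30 with library size only. Library size only called 9 of the 42 (19.1% of all genes) and housekeeping scaling 0 (5.81%). An unadjusted p under 0.05 was found for 18 and 14 of the 42 under these scalings by edgeR, beside 42.3% and 35.2% of all genes. Relative to the median of all genes the order was kept under these scalings, with 7 of 7 break sensing and checkpoint genes, 8 of 12 recombination and Fanconi genes, 1 of 8 base excision genes and 0 of 6 nucleotide excision genes below it.

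**Figure D1:**
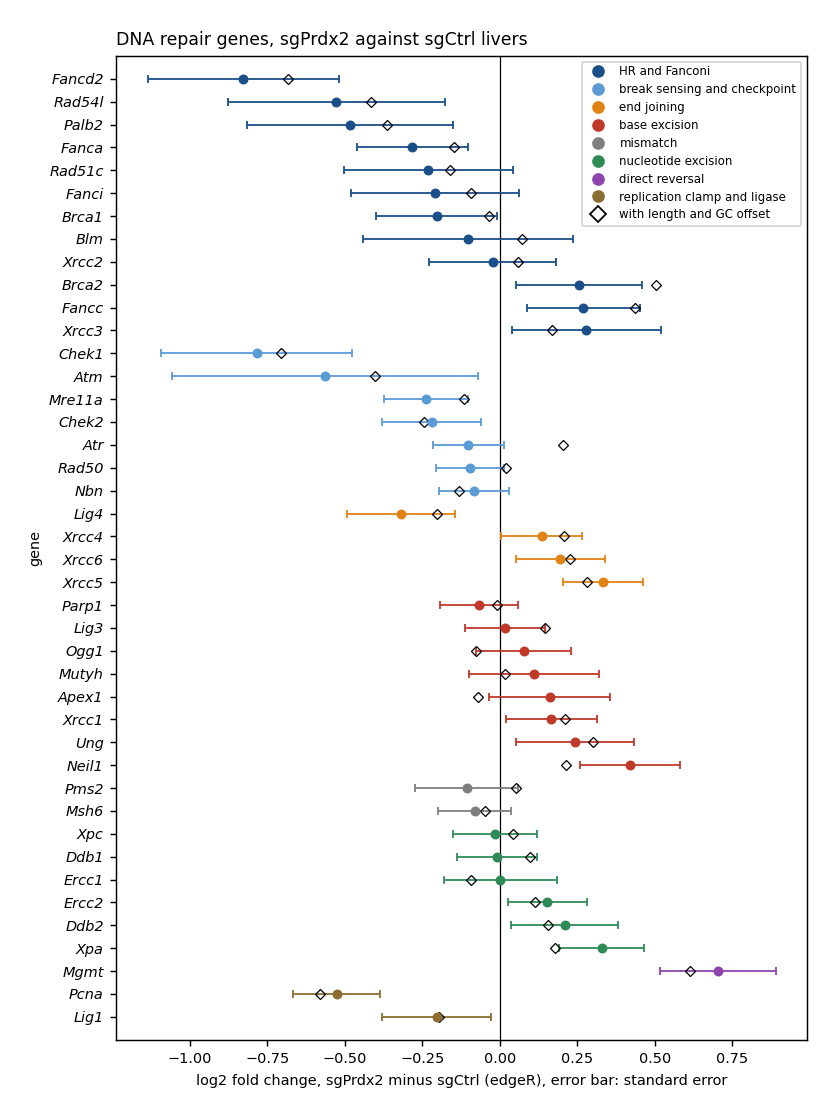
Log2 fold change of each of the 42 repair genes between sgPrdx2 and sgCtrl livers (horizontal axis, edgeR, TMM scaling), by gene (vertical axis), with 3 livers per group. Filled circles and bars are the estimate and its standard error, and open diamonds the estimate after an offset for transcript length and GC content, under which Atr, Rad50, Pms2, Blm, Xrcc2, Ogg1, Apex1, Xpc, Ddb1 and Ercc1 cross 0; Fancd2 (-0.83) and Mgmt (0.70) are the ends of the range.

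The levels of the pathways differed widely. Per length, as normalized CPM per kilobase of exon, the 12 recombination and Fanconi genes had a median of 0.306 in sgCtrl livers, with Fancd2 the lowest of all 42 at 0.205 ± 0.035 (SD, n = 3), and the 6 nucleotide excision genes a median of 5.78. Ddb1, an adaptor of a ubiquitin ligase that has many uses besides the recognition of UV damage, was the highest at 42.1 ± 2.8 (SD, n = 3). Apex1, the endonuclease that cuts at sites without a base, followed at 24.8 ± 4.9 (SD, n = 3) and Pcna at 16.3 ± 1.4 (SD, n = 3). Of the 5 highest genes, Ddb1, Apex1, Pcna, Xrcc5 and Parp1, only Pcna and Xrcc5 had groups that did not overlap. The floor of 3 counts stood for 0.0555 to 0.0921 CPM, far under the lowest single value of a repair gene (0.614 CPM, Fancd2 in sgPrdx2 liver 3.2), but the low recombination genes rested on few reads, 20 to 89 per liver for Fancd2.

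**Figure D2:**
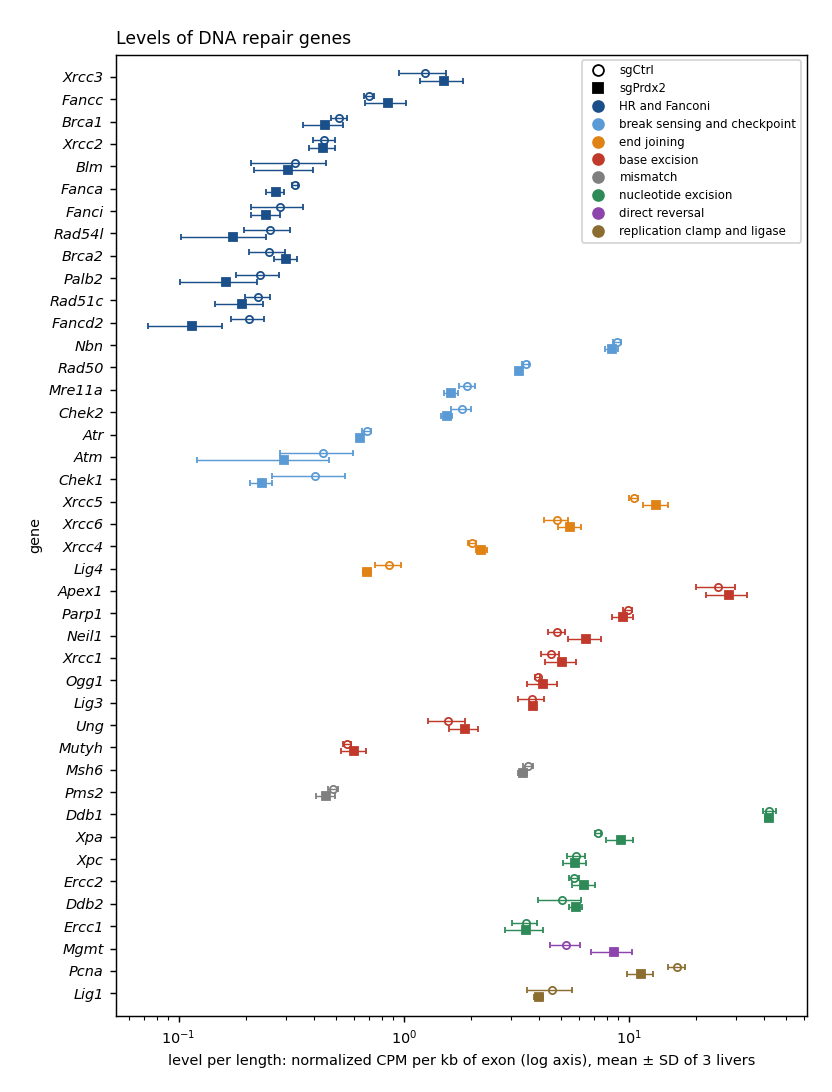
Level per length of the 42 repair genes, as normalized CPM per kilobase of exon on a log axis (horizontal), by gene (vertical), for sgCtrl livers (open circles) and sgPrdx2 livers (squares), as mean ± SD of 3 livers. Recombination and Fanconi genes sit lowest, from 0.205 for Fancd2 in sgCtrl, and Ddb1 highest at 42.1.

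In homologous recombination and the Fanconi pathway the largest difference was in Fancd2, which with Fanci forms the clamp that is put on DNA at a crosslink (chr6:113531682-113597017, plus strand, GRCm38). Fancd2 was at 1.33, 1.87 and 1.69 CPM in sgCtrl livers 5.1, 7.1 and 7.2 and at 0.843, 1.26 and 0.614 CPM in sgPrdx2 livers 1.1, 1.3 and 3.2. All 3 sgPrdx2 livers lay below all 3 sgCtrl livers, the closest pair being sgCtrl 5.1 and sgPrdx2 1.3. The log2 fold change was -0.83 (SE 0.31, 95% interval -1.54 to -0.11, unadjusted p = 0.0280, adjusted p = 0.154 by edgeR's quasi-likelihood test). The unadjusted p was under 0.05 in 10 of 14 alternatives, and above it without sgCtrl liver 7.1, sgCtrl liver 7.2, sgPrdx2 liver 1.1 or sgPrdx2 liver 3.2.

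Its partner Fanci was at 1.14, 1.91 and 1.85 CPM in the sgCtrl livers and 1.18, 1.5 and 1.57 CPM in the sgPrdx2 livers, which overlapped (log2 fold change -0.21, SE 0.27). All ratios of partner genes, here and below, are of levels per length (normalized CPM per kilobase of exon), so they differ from ratios of the CPM shown. The ratio of Fancd2 to Fanci was 0.741 ± 0.092 in sgCtrl and 0.471 ± 0.168 in sgPrdx2 livers (SD, n = 3 each). The ratios of the groups did not overlap (two-sided exact permutation p = 0.1, the smallest that 3 livers against 3 allow). Ratios were computed for 9 pairs of partners, chosen after the levels had been seen, and their smallest p after Benjamini-Hochberg adjustment was 0.3 (exact permutation test), for this pair, Brca1 with Brca2 and Xrcc4 with Lig4.

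Fanca, a subunit of the Fanconi core complex that puts ubiquitin on Fancd2, was at 2.92, 2.94 and 2.78 CPM in the sgCtrl livers and 2.42, 2.55 and 2.12 CPM in the sgPrdx2 livers. The groups did not overlap, and the difference was small (log2 fold change -0.28, SE 0.18, adjusted p = 0.362 by edgeR). Fancc, another core subunit, was at 6.15, 5.87 and 5.59 CPM against 6.29, 6.19 and 8.78 CPM. Here all 3 sgPrdx2 livers were above the sgCtrl livers, liver 3.2 by far the most and the other two narrowly (log2 fold change 0.27, SE 0.18, adjusted p = 0.390 by edgeR, with the opposite sign at -0.12 and -0.13 when scaled by library size only or to housekeeping genes). So members of the same core complex lay on opposite sides, neither past the test. Of the exons of Fancc 18.6%, and of Fanca 10.5%, overlap a gene on the opposite strand, and whether reads were counted by strand is not stated.

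The other 9 recombination and Fanconi genes had overlapping groups. Rad54l, a motor protein of strand exchange, and Palb2, which links Brca1 to Brca2, had log2 fold changes of -0.53 (SE 0.35) and -0.48 (SE 0.33). Palb2 was at 1.37, 1.6 and 2.07 CPM in sgCtrl and at 1.44, 1.46 and 0.676 CPM in sgPrdx2 livers, and Rad54l at 1.58, 1.82 and 2.45 against 1.69, 1.63 and 0.706 CPM, so that sgPrdx2 livers 1.1 and 1.3 lay within the sgCtrl range and liver 3.2 far under it. The log2 fold changes of Rad54l and Palb2 were -0.23 and -0.21 without sgPrdx2 liver 3.2 and -0.33 and -0.30 without sgCtrl liver 7.2. Brca2, which loads the recombinase on DNA, was at 3.50, 4.03 and 2.76 CPM in sgCtrl and at 4.35, 4.36 and 3.53 CPM in sgPrdx2 livers, and Brca1 at 4.04, 4.76 and 4.39 against 3.62, 4.64 and 3.16 CPM. The log2 fold changes were 0.26 (SE 0.20) for Brca2, with -0.11 when scaled by library size only or to housekeeping genes, and -0.20 (SE 0.20) for Brca1, and the Brca1 to Brca2 ratio was 2.10 ± 0.39 in sgCtrl and 1.49 ± 0.19 in sgPrdx2 livers (SD, n = 3 each, exact permutation p = 0.1, adjusted 0.3). The rest, the paralogs Rad51c, Xrcc2 and Xrcc3 and the helicase Blm, had log2 fold changes from -0.23 (Rad51c) to 0.28 (Xrcc3, with -0.09 and -0.08 under these scalings).

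Of the genes that sense breaks and pass the signal on, all 7 were on the lower side in sgPrdx2 livers, beside 51.7% of all tested genes. All 7 were also on that side under every other normalization and in each of the 6 fits that left out a liver. With library size only and housekeeping scaling, however, 81.2% and 81.5% of all genes were on it. With the offset for length and GC content 5 of the 7 genes were lower, with Atr at 0.20 and Rad50 at 0.02 on the higher side. Chek1, the kinase that Atr activates when replication stalls (chr9:36708482-36727065, minus strand), had the largest difference. It was at 1.19, 1.89 and 2.53 CPM in sgCtrl livers 5.1, 7.1 and 7.2 and at 1.09, 1.2 and 0.952 CPM in sgPrdx2 livers 1.1, 1.3 and 3.2. The sgPrdx2 livers were close to each other and the sgCtrl livers were spread, with sgCtrl 5.1 at the level of the sgPrdx2 livers, so the groups overlapped. The log2 fold change was -0.78 (SE 0.31, 95% interval -1.50 to -0.07, unadjusted p = 0.0344, adjusted p = 0.168 by edgeR). Without sgCtrl liver 7.2 it was -0.50 (unadjusted p = 0.154 by edgeR), and the p was also above 0.05 without sgCtrl 7.1 or any one of the sgPrdx2 livers.

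Mre11a, the nuclease of the break-sensing complex, was at 10.3, 11.9 and 11.8 CPM in sgCtrl and at 9.55, 10.3 and 8.97 CPM in sgPrdx2 livers. The groups touched without overlapping (log2 fold change -0.24, SE 0.13, adjusted p = 0.309 by edgeR). Rad50, which holds the ends of a break together, was at 19.2, 18.9 and 18.0 against 17.3, 17.5 and 17.6 CPM. The groups did not overlap, and the spreads were narrow, yet the difference was small (log2 fold change -0.10, SE 0.11, adjusted p = 0.607 by edgeR, and 0.02 with the offset for length and GC content). Nbn, the third subunit, had a log2 fold change of -0.08 (SE 0.11). The ratios of Rad50 to Mre11a (1.82 ± 0.20 in sgCtrl and 2.01 ± 0.15 in sgPrdx2, SD, n = 3 each) and of Nbn to Mre11a (4.65 ± 0.27 and 5.20 ± 0.66) overlapped between the groups (exact permutation p = 0.3 for each), and with 3 livers per group no ratio test can go below 0.1.

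Atm, the kinase activated by breaks, varied more among livers than any other repair gene. It was at 4.61, 6.12 and 2.89 CPM in sgCtrl livers and at 4.22, 3.90 and 0.983 CPM in sgPrdx2 livers, with a log2 fold change of -0.57 and a standard error of 0.49 (adjusted p = 0.504 by edgeR). The groups overlapped, with sgPrdx2 liver 3.2 apart from all others. Chek2, the kinase below Atm, was at -0.22 (SE 0.16), and Atr, the kinase above Chek1, at -0.10 (SE 0.11) on the log2 scale. Atr stayed within a narrow range, from 14.7 to 16.9 CPM over the 6 livers.

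The replication clamp had the smallest p of all 42 genes. Pcna forms the ring that holds polymerases and ligases on DNA in replication and in the last steps of excision repair (chr2:132249162-132253314, minus strand). Pcna was at 37.2, 37.4 and 43.0 CPM in sgCtrl livers 5.1, 7.1 and 7.2 and at 28.1, 30.3 and 23.2 CPM in sgPrdx2 livers 1.1, 1.3 and 3.2. Each sgPrdx2 liver was well below each sgCtrl liver. The log2 fold change was -0.53 (SE 0.14, 95% interval -0.85 to -0.21, unadjusted p = 0.00540, adjusted p = 0.0752 by edgeR's quasi-likelihood test), a level 0.694 times that of the controls. The unadjusted p was under 0.05 in 14 of 14 alternatives and the log2 fold change lay between -0.89 and -0.41 in them. The adjusted p ranged from 0.0216 to 0.229, and was under 0.05 with library size only, DESeq2 and the offset for length and GC content. Of the 50-base stretches of Pcna 19.1% also occur in the pseudogene Pcna-ps2, and how such reads were counted is not stated. Lig1, the ligase that seals replicated strands, was at 15.4, 19 and 24.2 CPM in sgCtrl and at 16.2, 17.1 and 17.7 CPM in sgPrdx2 livers. The groups overlapped (log2 fold change -0.20, SE 0.18, adjusted p = 0.494 by edgeR), and the log2 fold change was -0.02 without sgCtrl liver 7.2 and -0.35 without sgCtrl liver 5.1.

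**Figure D3:**
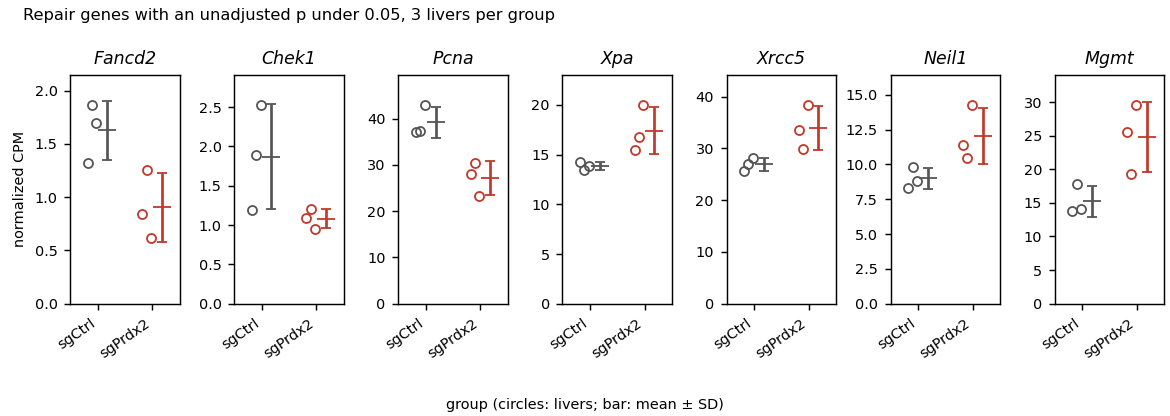
Normalized CPM (vertical axis, from 0, a scale per gene) of the 7 repair genes with an unadjusted p under 0.05, in sgCtrl and sgPrdx2 livers (horizontal axis). Circles are the 3 livers of each group and bars the mean ± SD; the groups overlap only in Chek1, where sgCtrl liver 5.1 (1.19 CPM) lies beside sgPrdx2 liver 1.3 (1.2 CPM).

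Mgmt had the largest difference upwards. It encodes the only direct-reversal enzyme among the 42, a methyltransferase that moves the alkyl group of O6-alkylguanine to itself and is used up in the reaction (chr7:136894614-137130266, plus strand). Mgmt was at 13.8, 17.9 and 14.1 CPM in sgCtrl livers 5.1, 7.1 and 7.2 and at 25.6, 19.3 and 29.6 CPM in sgPrdx2 livers 1.1, 1.3 and 3.2. The groups did not overlap, and sgPrdx2 liver 1.3 was close to sgCtrl liver 7.1. The mean was 15.2 ± 2.3 CPM in sgCtrl and 24.8 ± 5.2 CPM in sgPrdx2 livers (SD, n = 3 each), a fitted ratio of 1.63 and a log2 fold change of 0.70 (SE 0.19, 95% interval 0.27 to 1.14, unadjusted p = 0.00571, adjusted p = 0.0771 by edgeR). The sign was the same in 14 of 14 alternatives, with log2 fold changes from 0.31 to 0.87. The adjusted p ranged from 0.0139 to 0.256, under 0.05 with DESeq2 and without a filter on low counts, and the unadjusted p was above 0.05 with library size only (0.0868) and housekeeping scaling (0.142), both by edgeR. The 6 livers had the same order by Mgmt as by the sum of hepatocyte markers, which was 77110, 82580 and 77540 CPM in sgCtrl livers 5.1, 7.1 and 7.2 and 166500, 131800 and 178200 CPM in sgPrdx2 livers 1.1, 1.3 and 3.2, and the part of that sum in the Mgmt level was not tested.

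The demethylases Alkbh2 and Alkbh3, which also reverse alkylation directly, are not among the 42. Alkbh2 was at 7.58, 8.27 and 9.11 CPM in sgCtrl and at 10.3, 10.5 and 17.3 CPM in sgPrdx2 livers, without overlap (log2 fold change 0.60, SE 0.22, adjusted p = 0.152 by edgeR). Alkbh3 was at 21.4, 20.1 and 24.0 against 23.5, 23.1 and 31.5 CPM, with overlap (0.25, SE 0.16, adjusted p = 0.350 by edgeR, and -0.13 with library size only or housekeeping scaling).

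In end joining, Xrcc5 and Xrcc6 encode the Ku ring that caps a broken end. Xrcc5 (chr1:72307421-72394952, plus strand) was at 25.7, 27.1 and 28.1 CPM in sgCtrl livers and at 33.5, 29.8 and 38.4 CPM in sgPrdx2 livers. The groups did not overlap (log2 fold change 0.33, SE 0.13, 95% interval 0.03 to 0.63, unadjusted p = 0.0335, adjusted p = 0.165 by edgeR). The sign turned with library size only and with housekeeping scaling, to -0.05 in both. Xrcc6 was at 18.6, 21.8 and 23.9 against 23.0, 22.8 and 27.8 CPM, with overlap (log2 fold change 0.19, SE 0.14, and -0.18 under both scalings). The ratio of Xrcc5 to Xrcc6 was 2.22 ± 0.18 in sgCtrl and 2.42 ± 0.14 in sgPrdx2 livers (SD, n = 3 each, exact permutation p = 0.2), and the ratios of the groups overlapped.

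Lig4, the ligase of end joining, was on the other side. It was at 4.98, 4.65 and 3.81 CPM in sgCtrl and at 3.69, 3.64 and 3.41 CPM in sgPrdx2 livers, without overlap (log2 fold change -0.32, SE 0.17, adjusted p = 0.293 by edgeR). Its scaffold Xrcc4 was at 8.09, 8.59 and 8.81 against 9.73, 9.49 and 8.75 CPM, with overlap (0.13, SE 0.13, and -0.23 and -0.22 with library size only and housekeeping scaling). The Xrcc4 to Lig4 ratio was 2.38 ± 0.44 in sgCtrl and 3.21 ± 0.04 in sgPrdx2 livers (SD, n = 3 each), without overlap (exact permutation p = 0.1, adjusted 0.3).

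In base excision repair 7 of 8 genes were on the higher side, and 1 of 8, Neil1, with library size only or housekeeping scaling. Neil1, a glycosylase for oxidized pyrimidines (chr9:57142800-57148305, minus strand), was at 8.34, 9.83 and 8.81 CPM in sgCtrl livers and at 11.4, 10.5 and 14.3 CPM in sgPrdx2 livers. The groups did not overlap, and sgPrdx2 liver 1.3 was close to sgCtrl liver 7.1, as for Mgmt. The log2 fold change was 0.42 (SE 0.16, 95% interval 0.05 to 0.79, unadjusted p = 0.0321, adjusted p = 0.162 by edgeR). It was 0.21 with the offset for length and GC content, 0.04 with library size only and 0.03 with housekeeping scaling, and the unadjusted p was under 0.05 in 7 of 14 alternatives.

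Ung, which removes uracil, was at 6.76, 9.76 and 9.32 CPM in sgCtrl and at 8.73, 10.1 and 11.7 CPM in sgPrdx2 livers, with overlap (log2 fold change 0.24, SE 0.19, adjusted p = 0.458 by edgeR, and -0.13 and -0.14 with library size only and housekeeping scaling). The remaining 6 also overlapped. They were Ogg1 and Mutyh, which guard against 8-oxoguanine, at 0.08 (SE 0.15) and 0.11 (SE 0.21), Apex1 at 0.16 (SE 0.19), the scaffold Xrcc1 at 0.17 (SE 0.15) with its ligase Lig3 at 0.02 (SE 0.13), and the nick sensor Parp1 at -0.07 (SE 0.13) on the log2 scale, and with the offset for length and GC content Ogg1 and Apex1 were at -0.08 and -0.07. For Ogg1, the glycosylase of the main oxidized base, the 95% interval of the log2 fold change was -0.28 to 0.43. For Parp1 it was -0.36 to 0.23. The exons of Apex1 overlap Pip4p1 on the opposite strand over 61.7% of their length, so its level is uncertain.

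Of the mismatch genes, Msh6, a subunit of the main mismatch sensor, was at 14.6, 16.1 and 15.9 CPM in sgCtrl and at 14.7, 15.3 and 14 CPM in sgPrdx2 livers (log2 fold change -0.08, SE 0.12, 95% interval -0.35 to 0.19). Pms2, a subunit of the endonuclease that follows it, was at 3.95, 3.71 and 4.15 against 3.42, 4.07 and 3.47 CPM (-0.11, SE 0.17, and 0.05 with the offset for length and GC content). Both overlapped between the groups, and their adjusted p was 0.695 and 0.717 by edgeR.

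In nucleotide excision repair, Xpa, which checks the damaged strand and places the incision complex (chr4:46155347-46196311, minus strand), was at 14.3, 13.5 and 13.8 CPM in sgCtrl livers and at 15.5, 16.8 and 20.0 CPM in sgPrdx2 livers. The sgCtrl livers were tightly grouped and all sgPrdx2 livers lay above them (log2 fold change 0.33, SE 0.14, 95% interval 0.01 to 0.64, unadjusted p = 0.0430, adjusted p = 0.187 by edgeR). The sign turned with library size only (-0.05) and housekeeping scaling (-0.06), and the unadjusted p was under 0.05 in 5 of 14 alternatives. Ddb2, which finds UV lesions, was at 17.1, 13 and 11.4 against 14.7, 16.5 and 16.7 CPM. The groups overlapped (0.21, SE 0.17, adjusted p = 0.476 by edgeR, and -0.17 under both of these scalings). The damage sensor Xpc, Ddb1, the nuclease subunit Ercc1 and the helicase Ercc2 had log2 fold changes from -0.02 to 0.15, all below 0 with library size only or housekeeping scaling, and Ddb1, at 251 to 287 CPM over the 6 livers, had a 95% interval of -0.31 to 0.29. The exons of Ercc2 and Ddb2 overlap opposite-strand genes over 42.4% and 23.8% of their length.

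**Figure D4:**
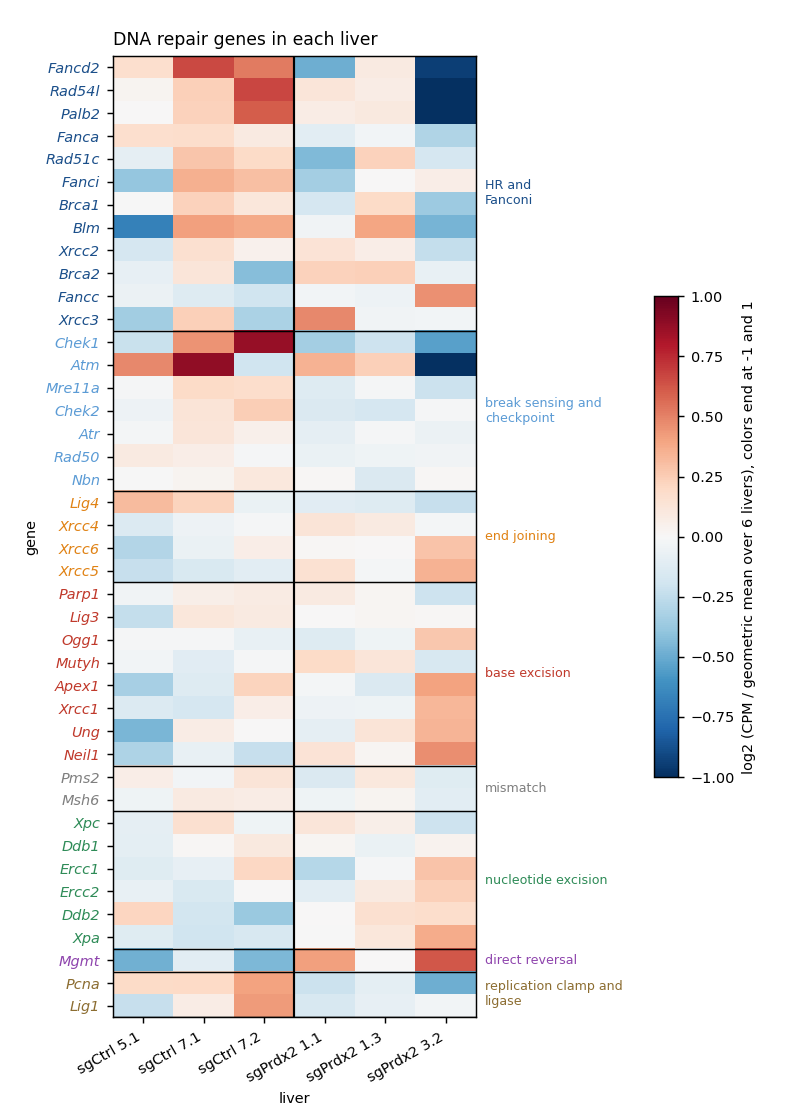
The 42 repair genes (rows, grouped by pathway) in the 6 livers (columns, sgCtrl left of the line and sgPrdx2 right of it), as log2 of the normalized CPM over the gene's geometric mean across the livers, with colors ending at -1 and 1. Dark blue cells in sgPrdx2 liver 3.2 are Fancd2, Rad54l, Palb2 and Atm, and the red cells of Mgmt lie in sgPrdx2 livers 1.1 and 3.2.

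The 6 livers were not alike within a group. Liver 3.2 of the sgPrdx2 group was the lowest of all 6 livers for 6 of the 12 recombination and Fanconi genes and 3 of the 7 break sensing and checkpoint genes, and the highest for 5 of the 8 base excision and 3 of the 6 nucleotide excision genes. The mean log2 deviation of the recombination and Fanconi genes was -0.12, 0.25 and 0.16 in sgCtrl livers 5.1, 7.1 and 7.2 and -0.05, 0.11 and -0.35 in sgPrdx2 livers 1.1, 1.3 and 3.2, so that sgCtrl liver 5.1 lay under both sgPrdx2 livers 1.1 and 1.3. For break sensing and checkpoint it was 0.04, 0.27 and 0.18 against -0.06, -0.05 and -0.37, without overlap. For base excision it was -0.19, -0.03 and 0.02 against 0.02, 0.01 and 0.18, with livers sgCtrl 7.2, sgPrdx2 1.1 and sgPrdx2 1.3 nearly level.

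Exon length moved with these deviations. Over 16540 genes with an exon length, Spearman's rho of a gene's deviation with its exon length was 0.20, 0.37 and 0.04 in sgCtrl livers 5.1, 7.1 and 7.2 and 0.02, 0.09 and -0.46 in sgPrdx2 livers 1.1, 1.3 and 3.2, so that long transcripts were low in liver 3.2. Over the 42 repair genes it was 0.24, 0.50 and 0.20 against -0.10, 0.33 and -0.50. These are correlations across genes of 1 library, and genes are not independent replicates. The recombination and Fanconi genes are long, with a median exon length of 7822 bases, break sensing and checkpoint genes 5375, base excision genes 3952 and nucleotide excision genes 3640, beside 3880 for all tested genes. With an offset for length and GC content fitted per library, 20 of the 42 were on the lower side (51.0% of all genes), and the median of the recombination and Fanconi genes was -0.06 (7 of 12 on the lower side), that of break sensing and checkpoint -0.13 (5 of 7), of end joining 0.22, of base excision 0.08 (5 of 8 on the higher side) and of nucleotide excision 0.11 (5 of 6). Without sgPrdx2 liver 3.2 they were -0.13 (7 of 12), -0.15 (7 of 7), 0.15, 0.03 (6 of 8) and 0.08 (4 of 6). Pcna, Fancd2, Chek1, Mgmt and Xrcc5 kept an unadjusted p under 0.05 with the offset (0.00155, 0.0322, 0.0468, 0.00782 and 0.0365 by edgeR), Neil1 and Xpa did not (0.145 and 0.122 by edgeR), and Brca2 had one of 0.0150 (log2 fold change 0.51, adjusted p = 0.0995 by edgeR).

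**Figure D5:**
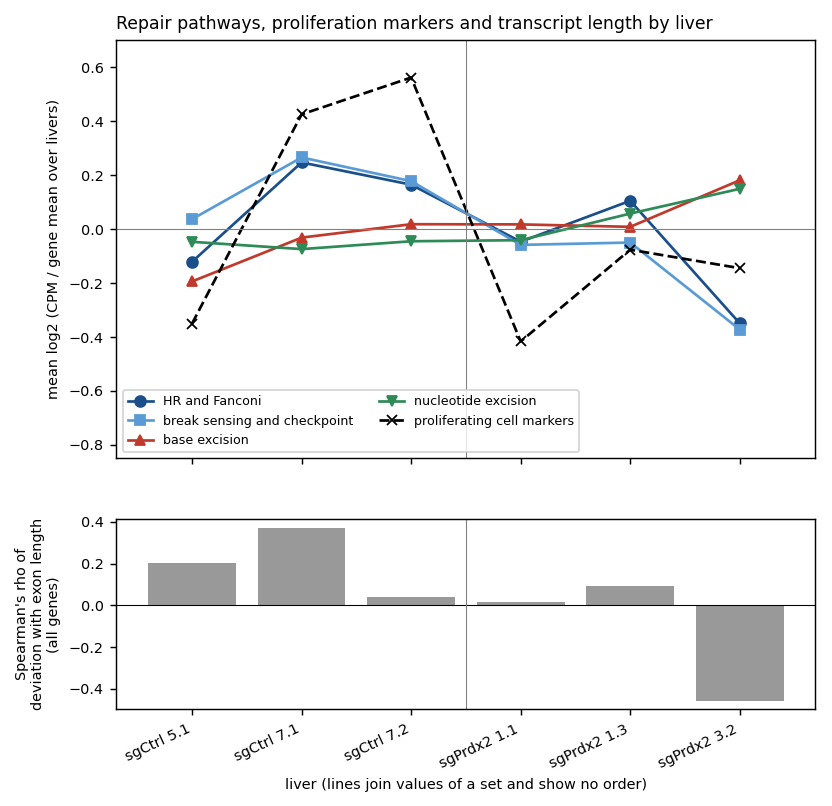
Upper panel, mean log2 deviation of 4 repair pathways and of the proliferating cell markers from each gene's mean, in each of the 6 livers (lines join values of a set and show no order); lower panel, Spearman's rho across 16540 genes of the deviation with exon length, in the same livers. Recombination and checkpoint genes and rho (-0.46) are all lowest in sgPrdx2 liver 3.2.

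Markers of other cells are given beside these values. Of 10 markers of proliferating cells, 9 were on the lower side in sgPrdx2 livers (51.7% of all tested genes) and 4 of these had an unadjusted p under 0.05 by edgeR (11.9% of all tested genes were lower at such a p), with a smallest adjusted p of 0.104, so none passed the test. They summed to 69.3, 116 and 124 CPM in sgCtrl livers 5.1, 7.1 and 7.2. In sgPrdx2 livers 1.1, 1.3 and 3.2 the sum was 64.5, 82.6 and 76.4 CPM. Among sgCtrl livers the sum was lowest in liver 5.1, as were Chek1, Fancd2, Fanci, Blm and Lig1. Liver 5.1 was also the lowest sgCtrl liver for Mgmt, Neil1, Ung, Xrcc5, Xrcc6 and Apex1, which were on the higher side in sgPrdx2 livers. Of the 42 repair genes, only Brca2, Fanca, Fancc, Rad50, Atm, Lig4, Ogg1, Mutyh, Xrcc1, Pms2, Ddb2, Xpa and Ercc2 had another lowest sgCtrl liver. A low level in liver 5.1 was thus shared by most of the list and was not particular to the genes named beside the sum. Among sgPrdx2 livers the sum was lowest in liver 1.1, as were Fanci and Lig1, while Chek1, Fancd2 and Blm were lowest in liver 3.2. Macrophage markers (8 of 8 on the lower side) summed to 3681 to 4162 CPM in sgCtrl and 2601 to 3669 CPM in sgPrdx2, lymphocyte markers (7 of 8) to 90.5 to 103 and 50.6 to 71.6 CPM, stellate cell and fibroblast markers (7 of 7) to 1979 to 2327 and 1444 to 1478 CPM, endothelial markers (4 of 5) to 195 to 229 and 144 to 224 CPM, and cholangiocyte markers (5 of 5) to 1624 to 1852 and 1215 to 1389 CPM. Of these lists, 1 macrophage, 1 lymphocyte and 1 endothelial marker had an adjusted p under 0.05 by edgeR, beside 3.33% of all tested genes. The smallest adjusted p by edgeR was 0.0584 among stellate cell and fibroblast and 0.117 among cholangiocyte markers. Of 4 neutrophil markers 2 were high enough to be tested (smallest adjusted p 0.783 by edgeR). The part of these cell types in the repair gene values was not tested.

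Among 92 other genes of the same pathways, which did not always lie on the side of the 42, no gene passed the test by edgeR either. Of these 91 were tested (Atrip was too low), and 0 had an adjusted p under 0.05 by edgeR, with 18 at an unadjusted p under 0.05 (19.8%, beside 24.9% of all tested genes), 6 with lower and 12 with higher levels in sgPrdx2 livers. DESeq2 called 2 (beside 13.4% of the genes it tested), Rbbp8 and Nthl1, the latter of which the rule for naming genes did not choose. Their median log2 fold change was 0.11, with 39 on the lower and 52 on the higher side. By pathway the median was 0.03 in recombination and Fanconi genes (14 of 28 on the lower side), -0.16 in break sensing and checkpoint (8 of 11), 0.14 in end joining (2 of 9), 0.01 in base excision (5 of 10), 0.29 in mismatch repair (0 of 3), 0.12 in nucleotide excision (5 of 18), 0.43 in direct reversal (0 of 2) and 0.00 in the replication machinery (5 of 10).

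The smallest p among them was that of Rbbp8, also known as CtIP, which starts the trimming of broken ends together with Mre11a. Rbbp8 was at 17.9, 18.7 and 18.5 CPM in sgCtrl livers 5.1, 7.1 and 7.2 and at 12.8, 13.2 and 13.1 CPM in sgPrdx2 livers 1.1, 1.3 and 3.2. Both groups were tight and far apart (log2 fold change -0.49, SE 0.11, 95% interval -0.75 to -0.23, adjusted p = 0.0555 by edgeR). Its adjusted p ranged from 0.00900 to 0.384 over 14 alternatives, the log2 fold change was -0.23 at its smallest, with the offset for length and GC content, and without sgPrdx2 liver 3.2 the adjusted p was 0.0462 by edgeR. Exo1, the exonuclease that trims further, was at 1.05, 1.0 and 1.41 against 0.706, 0.555 and 0.430 CPM, without overlap (-1.02, SE 0.29, adjusted p = 0.0893 by edgeR, unadjusted p under 0.05 in 14 of 14 alternatives).

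Topbp1, an activator of Atr, was at 15.6, 18.6 and 17.7 CPM in sgCtrl and 14.7, 14.5 and 10.4 CPM in sgPrdx2 livers, without overlap (log2 fold change -0.39, SE 0.17, adjusted p = 0.198 by edgeR). Clspn, which brings Chek1 to Atr, was at 1.01, 2.36 and 2.87 against 1.3, 1.42 and 0.829 CPM. Its groups overlapped through sgCtrl liver 5.1, as those of Chek1 did (-0.80, SE 0.40).

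The 2 genes with the smallest p in end joining and in base excision were on the higher side. In these lists as a whole, 2 of 9 end joining and 5 of 10 base excision genes were on the lower side. Nhej1, a partner of Xrcc4, was at 4.39, 4.76 and 4.70 CPM in sgCtrl and 5.99, 5.99 and 9.09 CPM in sgPrdx2 livers (log2 fold change 0.60, SE 0.20, adjusted p = 0.128 by edgeR), and the polymerase Poll at 12.5, 14.1 and 14.8 against 16.2, 16 and 20.5 CPM (0.35, SE 0.15). Neither overlapped between the groups. Mpg, the glycosylase for alkylated bases, was at 17.6, 17.1 and 17.5 CPM in sgCtrl and 22.7, 21.9 and 22.5 CPM in sgPrdx2 livers, in tight and separate groups (0.36, SE 0.11, adjusted p = 0.0973 by edgeR). Aptx, which cleans blocked ends, was at 13.7, 12.5 and 14.2 against 19.3, 16 and 18.9 CPM, also without overlap (0.42, SE 0.13, adjusted p = 0.107 by edgeR). When scaled by library size only Mpg and Poll were at -0.01 and -0.03, and with housekeeping scaling at -0.01 and -0.04.

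Msh3, a mismatch sensor for loops, was at 10.8, 13.6 and 13 CPM in sgCtrl and 16.9, 15.7 and 14.6 CPM in sgPrdx2 livers, without overlap (log2 fold change 0.34, SE 0.14, adjusted p = 0.188 by edgeR), where Msh6 was at -0.08. Mlh3, of the same pathway, was at 0.22 (SE 0.14), with overlap. Of the repair factor TFIIH, which opens the DNA around a bulky lesion, Gtf2h4 was at 12.5, 14.7 and 14.3 against 18.3, 16.6 and 23.0 CPM, without overlap (0.48, SE 0.16, adjusted p = 0.118 by edgeR), and Gtf2h5 was at 0.30 (SE 0.17), with overlap. In the replication machinery Rfc2, of the complex that loads Pcna, was at 37, 36.3 and 37.7 CPM in sgCtrl and 48.8, 42.6 and 56.5 CPM in sgPrdx2 livers. Rfc2 therefore lay on the side opposite to Pcna, without overlap (0.41, SE 0.13, adjusted p = 0.116 by edgeR). The polymerase subunit Pold2 was at 15.8, 16.7 and 20.8 against 22.2, 20.4 and 32.0 CPM, with overlap (0.48, SE 0.20, adjusted p = 0.184 by edgeR). Under library size only or housekeeping scaling Msh3, Mlh3 and Gtf2h5 were below 0 and Gtf2h4, Rfc2 and Pold2 above it.

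Promoter sequences were searched for the site of E2F factors, which drive many replication genes, as TTTCCCGC, TTTCGCGC, TTTGCCGC or TTTGGCGC on either strand, from 250 bases before to 50 bases after the start (RefSeq, GRCm38.p6). Of the 42 genes 36 had a window. The site was in those of 6 of the 36 (16.7%), Brca2, Rad51c, Chek2, Xrcc6, Msh6 and Lig1, beside 2.60% of 27025 genes with a window. That comparison set was not limited to genes tested in these livers, while all 42 were tested, so the shares are of unlike sets. None of these 6 had an unadjusted p under 0.05 (Fancd2 had no window), and they lay on both sides, from -0.23 (Rad51c) to 0.26 (Brca2) on the log2 scale. Of these, 3 genes whose site has the same letters, 2 above and 1 below a log2 fold change of 0, were picked as examples (Rad51c holds these letters too and is not shown). Each is given by a stretch of 30 bases around the site, in capitals, read on the strand of the gene, at chr5:150522442-150522471 for Brca2 (plus strand, 168 bases before the start), chr5:110839820-110839849 for Chek2 (plus strand, 152 before) and chr15:82016312-82016341 for Xrcc6 (plus strand, 46 before). A match is a description of these letters and not a measured binding site.
Brca2: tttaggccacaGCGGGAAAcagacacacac
Chek2: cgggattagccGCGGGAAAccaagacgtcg
Xrcc6: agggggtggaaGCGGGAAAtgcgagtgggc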

How the data were processed

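RNA of 6 livers was sequenced. The authors deposited raw counts of reads per gene as whole numbers, without normalization, and a DESeq2 comparison of the groups, which holds mean signal, fold changes and p-values of their own and was not used here. The submitters' processing notes name HISAT2, HTSeq, DESeq2 and the build GRCm38. Annotation and strandedness are not given in the sources used here. Groups came from the sample labels, where each liver has a mouse of its own.

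The analysis used R 4.3.3 and edgeR 4.0.16 (filterByExpr, minimum count 10, TMM, glmQLFit and glmQLFTest, Benjamini-Hochberg adjustment over 17032 genes, two-sided, all 6 livers and no covariate). Standard errors come from the log2 fold change and its F value, and 95% intervals from the t distribution of the fit. The common biological coefficient of variation was 0.213. TMM factors lay between 1.12 and 1.17 for sgCtrl livers and between 0.805 and 0.952 for sgPrdx2 livers. The smallest chi-square between a pair of livers was 31.9 times its degrees of freedom, so none were copies. A floor is 3 counts and covers counting error only.

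Exon lengths, overlaps and shared 50-base stretches came from GENCODE M21 on GRCm38. Exon length is the union of exons over all annotated transcripts of a gene, and can exceed the length of each single transcript. It stands for transcript length throughout, and levels per length rest on it. The offset for length and GC content is a trend fitted per library (mgcv 1.9.3). The 14 alternatives were 4 other scalings (RLE, upper quartile, library size only, 6 housekeeping genes), DESeq2 1.42.0, no filter, at least 10 counts in every liver, the offset, and leaving out each liver in turn. The fit was tested on simulated counts, drawn with a common dispersion and without a trend with exon length. That test therefore does not bear on the length trend of these livers. Values in every liver are given for genes with an unadjusted p under 0.05, without overlap, or among the 2 smallest p of their pathway, and for Fanci, Palb2, Rad54l, Brca1, Brca2, Atm, Xrcc6 and Xrcc4, chosen after their values were seen. Of the other pathway genes, the 2 with the smallest p in each pathway are named. The 42 genes, the pathway lists and the marker lists were chosen with earlier results of these data known.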

Additional observations from a re-analysis of the deposited data

How the results depend on the processing

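Over all genes, 567 were called (305 higher and 262 lower in sgPrdx2). The number was 3247 with library size only (206 higher, 3041 lower), 989 with housekeeping scaling (70 higher, 919 lower), 2048 with DESeq2, 1128 without a filter on low counts and 999 with the offset for length and GC content. Leaving out a liver gave 0 to 619, with 0 without sgCtrl 5.1, sgCtrl 7.2, sgPrdx2 1.1 or sgPrdx2 1.3, where 3114, 3119, 3328 and 3993 genes had an unadjusted p under 0.05 by edgeR. Of the 42 repair genes, 0 were called in the fit reported, 9 with library size only (Atr, Chek1, Chek2, Fancd2, Lig4, Mre11a, Nbn, Pcna and Rad50), 2 with DESeq2 (Mgmt and Pcna), 1 without a filter (Mgmt) and 1 with the offset (Pcna). Those with an unadjusted p under 0.05 numbered 18 and 14 with library size only and housekeeping scaling (42.3% and 35.2% of all genes). When a liver was left out they numbered 2 to 5, beside 3114 to 4436 of the 17156 to 17557 genes tested. Under these 2 scalings 40 of 42 were on the lower side, with medians of -0.41 and -0.40, against -0.39 and -0.38 over all genes. Of the 91 other pathway genes tested, 12 were called with library size only (19.1% of all genes). Housekeeping scaling called 1 (Rbbp8, beside 5.81% of all genes) and DESeq2 called 2 (beside 13.4%). When a liver was left out 0 to 1 were called (Rbbp8, without sgPrdx2 3.2).

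The log2 fold change of Prdx2 was -0.0046 with upper-quartile normalization, -0.37 with library size only, -0.38 with housekeeping scaling, -0.0050 without a filter, -0.054 with the offset, and -0.168 to 0.129 when a liver was left out. With library size only and housekeeping scaling the sign turned for 16 of the 18 repair genes on the higher side, Mgmt and Neil1 excepted. Of these and of the other genes named by rule they were Fancc (-0.12 and -0.13), Xrcc5 (-0.048 and -0.050), Xpa (-0.05 and -0.056), Ung (-0.13 and -0.14), Ddb2 (-0.17 in both), Poll (-0.032 and -0.037), Mpg (-0.012 and -0.0085), Msh3 (-0.029 and -0.022), Mlh3 (-0.15 and -0.14), Gtf2h5 (-0.089 and -0.096) and Alkbh3 (-0.13 in both), and the other 11 repair genes lay between -0.38 and -0.08. With the offset the sign turned for 10 of the 42, Rad50 (0.019), Pms2 (0.052), Atr (0.20), Blm (0.07), Xrcc2 (0.06), Xpc (0.04), Ddb1 (0.10), Ogg1 (-0.08), Apex1 (-0.07) and Ercc1 (-0.09). It turned for 0 to 7 of the 42 when a liver was left out (7 without sgPrdx2 3.2) and for 0 to 1 under each remaining alternative. Library size only and housekeeping scaling moved the log2 fold changes of all genes together, to medians of -0.39 and -0.38. Which scaling is nearer to the true levels was not tested, and neither was the cause of the other changes. No paired analysis was possible because the groups share no replicate number. With 3 livers per group the exact tests cannot go below p = 0.1, and 20 to 89 reads per liver limit Fancd2.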
